A study of Mus musculus with 2 samples.

Results

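The genes described here encode CC chemokines that attract monocytes, and receptors that read them: the ligands Ccl2, Ccl7, Ccl8, Ccl12, Ccl3, Ccl4, Ccl6 and Ccl9, and the receptors Ccr1 and Ccr2. They were chosen as a group of related genes and not by a value measured here, though with earlier results of these data known. All 10 were matched by symbol to the feature table, among 32285 features. Their transcripts were counted as unique molecular identifiers (UMIs), each of which marks an RNA molecule captured from a cell, in 4403 cells with at least 200 genes, at least 500 UMIs and at most 10% mitochondrial UMIs. The cells came from subcutaneous tumors of SO, a syngeneic mouse ovarian cancer line that lacks p53 and carries Hras and Myc, grown in female C57BL/6 mice of 6 to 8 weeks. The hosts were WT mice or TSK (tight skin) mice, which are heterozygous for an intragenic duplication in Fbn1, the gene of the matrix protein fibrillin-1, and are used as a model of systemic sclerosis. Tumors of 4 mice were pooled for each genotype, dissociated and sequenced as 1 library without selection of a cell type, so no mouse can be told from another and no difference between genotypes could be tested. Every interval below is a 95% interval for counting error only, and no p-value is given.

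CC chemokines are small secreted proteins that bind G protein-coupled receptors and draw leukocytes along a gradient. Ccl2, Ccl7, Ccl8 and Ccl12 are the mouse monocyte chemoattractant proteins, and Ccr2, their main receptor, brings inflammatory monocytes out of the bone marrow and into inflamed or tumor tissue. Ccl3 and Ccl4 are the macrophage inflammatory proteins made by activated leukocytes, and Ccl3 acts through Ccr1 among other receptors. Ccl6 and Ccl9 are rodent chemokines of myeloid cells that signal through Ccr1. Monocytes lose Ccr2 as they mature into tissue macrophages.

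The genes lie in 3 places in the mouse genome (GRCm38, coordinates from GENCODE M21). The monocyte chemoattractant genes share a stretch of 81.2 kb on chromosome 11 on the plus strand: Ccl2 at chr11:82035571-82037453, Ccl7 at chr11:82045712-82047525, Ccl12 at chr11:82101845-82103400 and Ccl8 at chr11:82115185-82116799. After a gap of 1456 kb follow Ccl9 (chr11:83572919-83578636, minus strand), Ccl6 (chr11:83587882-83593087, minus), Ccl3 (chr11:83647844-83649355, minus) and Ccl4 (chr11:83662584-83664683, plus), within 91.8 kb. The receptors Ccr1 (chr9:123962124-123968692, minus) and Ccr2 (chr9:124101950-124113557, plus) lie within 151 kb on chromosome 9, with Ccr1l1 and Ccr3 between them. No stretch of 50 bases in the transcripts of Ccl2, Ccl7, Ccl8, Ccl12, Ccl3, Ccl4, Ccl6 or Ccr1 occurred in a transcript of another gene, whereas Ccl9 shared 59 of 2996 such stretches and Ccr2 129 of 6758. Reads from those parts of Ccl9 and Ccr2 could be split between genes.

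RefSeq promoter windows (GRCm38.p6) were at hand for 7 of the 10 genes, all but Ccl2, Ccl7 and Ccl4. The 250 bases before the start are shown for both pairs of ligand genes that phagocytes held most of, on the strand of the gene. Capitals mark TATAAA, the core of a TATA box, on the gene's strand, and AGGAAG or its reverse complement CTTCCT, a core bound by ETS factors such as PU.1.
Ccl8, chr11:82114935-82115184, plus strand: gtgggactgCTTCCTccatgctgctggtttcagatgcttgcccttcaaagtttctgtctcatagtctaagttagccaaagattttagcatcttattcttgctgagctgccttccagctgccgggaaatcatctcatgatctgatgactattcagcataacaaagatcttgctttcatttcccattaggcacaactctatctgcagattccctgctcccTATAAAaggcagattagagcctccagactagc
Ccl12, chr11:82101595-82101844, plus strand: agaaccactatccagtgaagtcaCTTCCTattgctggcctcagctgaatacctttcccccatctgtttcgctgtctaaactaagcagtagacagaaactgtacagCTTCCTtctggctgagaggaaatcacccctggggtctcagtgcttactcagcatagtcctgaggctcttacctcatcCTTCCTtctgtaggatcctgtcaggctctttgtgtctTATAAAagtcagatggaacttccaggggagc
Ccl6, chr11:83593088-83593337, minus strand: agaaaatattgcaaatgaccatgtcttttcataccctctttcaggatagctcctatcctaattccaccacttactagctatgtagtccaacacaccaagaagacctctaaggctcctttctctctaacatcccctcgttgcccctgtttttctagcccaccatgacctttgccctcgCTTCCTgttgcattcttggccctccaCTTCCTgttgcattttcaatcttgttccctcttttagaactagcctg
Ccl9, chr11:83578637-83578886, minus strand: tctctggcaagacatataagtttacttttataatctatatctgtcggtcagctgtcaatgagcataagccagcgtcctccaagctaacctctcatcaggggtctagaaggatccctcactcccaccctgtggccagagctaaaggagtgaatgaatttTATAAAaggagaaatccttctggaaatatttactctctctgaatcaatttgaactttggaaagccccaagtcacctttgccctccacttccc

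Ccl8 and Ccl12 carried TATAAA at -32 and -31, counted from the start, and the windows aligned over 213 positions with 67.6% identity. Ccl9 had TATAAA farther away, at -92, and Ccl6 had none. Ccl12 held 3 matches to AGGAAG between -227 and -68, Ccl6 held 2 (-73 and -47), Ccl8 held 1 (-241) and Ccl9 none. Ccl9 had the only match of the 7 windows to the NF-kB pattern (GGG, any 2 bases, then TTTCC; at -35) and to the AP-1 pattern TGANTCA (-53). Of 32851 promoter windows, 7.59% held TATAAA on the gene's strand, and on either strand 29.5% held AGGAAG, 1.41% the NF-kB pattern and 6.75% TGANTCA. The local alignment of Ccl6 with Ccl9 covered only 17 bases. A match of letters is not a site shown to be bound.

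The WT library gave 1442 cells with 17070622 UMIs (median 7658.5 per cell) and the TSK library 2961 cells with 45661542 UMIs (median 7302). A set of 263 barcodes occurred in both libraries and was left out. The 10 genes had 25403 UMIs in WT cells and 31390 in TSK cells. Cells were assigned to lineages by at least 3 UMIs from at least 2 marker genes, none of them a gene described here, and a class is called "like" its lineage because it rests on markers alone. Among cells with markers of phagocytes, those with at least 3 UMIs of Folr2, Lyve1, Cd163 or Timd4 were called resident macrophage-like (29 WT and 102 TSK cells), those with C1qa, C1qb and C1qc at 10 or more per 10000 UMIs C1q macrophage-like (140 and 239), and the rest monocyte-like (160 and 116). Of these 786 phagocytes, 79 lay between 5 and 20 C1q UMIs per 10000, close to that limit. No monocyte marker was asked for in the monocyte-like class, which rests on low C1q and few resident markers. A list of 9 monocyte markers summed to 3330 CPM there and 447 in all other cells. Plac8 was higher there than in the C1q class (1248 and 164 CPM), but Chil3 (813 and 765) and F13a1 (283 and 324) were close. Arg1 was at 2844 and 4015 CPM. The limit of the resident class was a raw count, and its WT cells were deeper (median 20922 UMIs, against 9552.5 in TSK). Its 4 markers summed to 417 CPM in WT and 1223 in TSK. Only 3 or 4 marker UMIs were found in 10 of its 29 WT and 27 of its 102 TSK cells. Ratios of the resident class thus compare cells with unlike marker levels. The other large classes were neutrophil-like (40 and 205), T-like (452 and 287), fibroblast-like (166 and 237), mural-like (19 and 72), endothelial-like (88 and 66) and cancer-like cells (109 and 1201). All 9 phagocyte markers, all 9 T markers and all 10 fibroblast markers were found in at least 10% of the cells of their class, 10 of 11 for neutrophils and 7 of 11 for cancer cells. Graph clustering gave the same name to 3377 of 3834 cells that both methods named (88.1%). The clusters were named by the same marker lists, so this agreement is partly built in. It was lower for monocyte-like cells, of which 79 of 160 in WT and 31 of 116 in TSK fell in the monocyte cluster. Another 79 and 84 fell in clusters named C1q macrophage. Cells with at least 3 marker UMIs of more than 1 lineage numbered 1489. They included 17 of 19 WT and 69 of 72 TSK mural-like cells, and 16 of 29 and 26 of 102 resident macrophage-like cells. Also among them were 78 of 109 and 835 of 1201 cancer-like cells, and 45 of 88 and 39 of 66 endothelial-like cells. No doublet caller was run. Without these cells 45 of 58 ratios kept their sign, and those that turned are given with the gene.

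Levels are counts per 1000000 (CPM): the UMIs of a gene for that many UMIs of all genes in the cells of a class, summed over the class. They show the sources of each ligand: Ccl2 and Ccl7 in fibroblast-like and mural-like cells and in macrophages, Ccl8 in resident macrophages, Ccl12 in both macrophage classes, Ccl3 and Ccl4 in neutrophils, and Ccl6 and Ccl9 in all 3 phagocyte classes. Ccr1 was read in neutrophils and phagocytes and Ccr2 in monocytes, macrophages and T cells. As 1 gene's level is not divided by its length in 3' libraries and depends on how well its transcript end is captured, levels are compared between cells and not between genes.

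**Figure D1:**
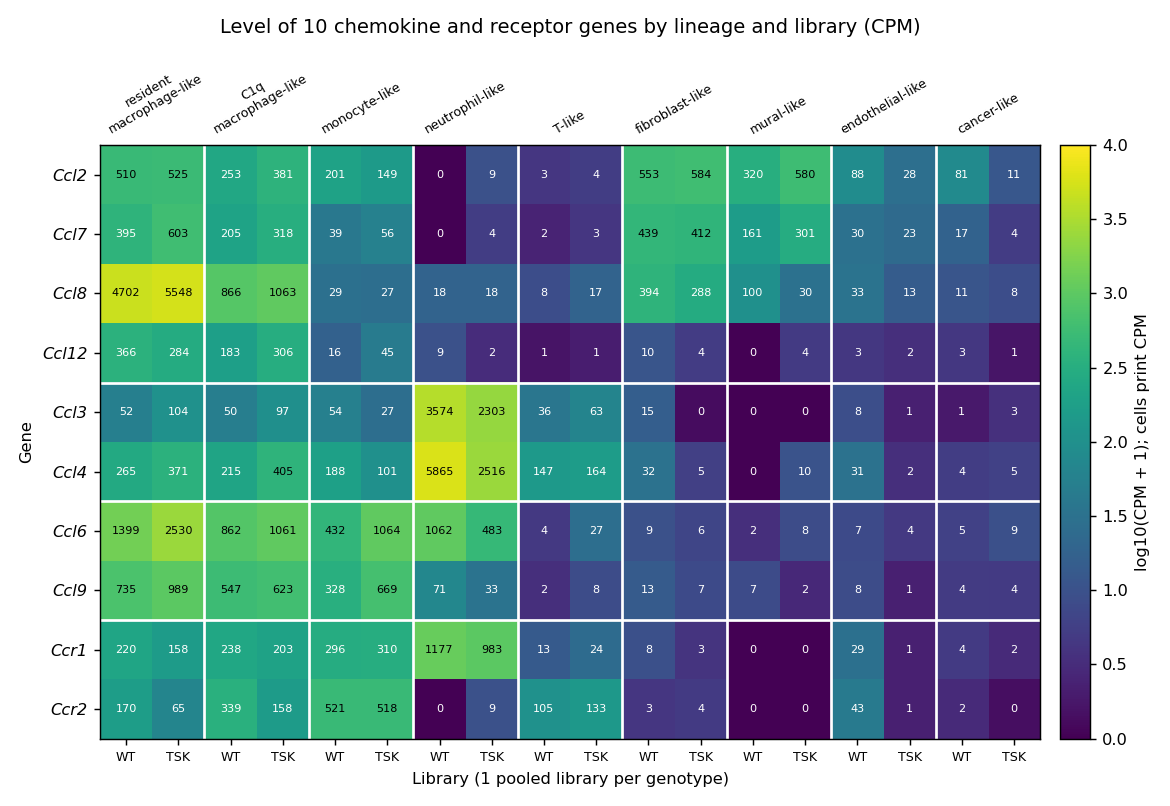
Level of the 10 genes (rows) in the 9 largest lineages of the WT and TSK libraries (columns), in CPM, with 1 pooled library per genotype; colour is log10(CPM + 1) and each cell of the map prints the CPM. Ccl8 is brightest in resident macrophage-like cells (4702 WT, 5548 TSK), Ccl3 and Ccl4 in neutrophil-like cells and Ccl6 in TSK resident macrophage-like cells (2530), and Ccr2 is brightest in monocyte-like cells of both libraries (521 and 518).

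Fibroblast-like cells held more of the Ccl2 UMIs than phagocytes did in both libraries. By level, fibroblast-like and resident macrophage-like cells came first among the large classes in WT, within counting error of each other. In TSK, fibroblast-like and mural-like cells came first. In fibroblast-like cells Ccl2 reached 553 CPM in WT (1856 UMIs, in 95 of 166 cells) and 584 CPM in TSK (1572 UMIs, in 134 of 237 cells). The log2 ratio of TSK over WT was 0.08 (-0.02 to 0.18), and -0.15 when ratios were scaled by the median gene of the class, which stood at 0.23. Over the alternative settings given at the end, the fibroblast ratio of Ccl2 ran from -0.15 to 0.75. Mural-like cells, the pericytes and smooth muscle cells of vessels, had 320 CPM in WT (131 UMIs) and 580 CPM in TSK (606 UMIs), a log2 ratio of 0.86. That ratio ran from 0.29 to 2.66 over the same settings, and nearly all mural-like cells also carried markers of another lineage. Among phagocytes, resident macrophage-like cells had 510 and 525 CPM, C1q macrophage-like cells 253 and 381, and monocyte-like cells 201 and 149, with log2 ratios of 0.04, 0.59 and -0.44. Fibroblast-like cells held 52.2% of the library's Ccl2 UMIs in WT and 40.2% in TSK, phagocytes 29.9% and 32.6%, and mural-like cells 3.68% and 15.5%. Neutrophil-like cells were without Ccl2 at this depth, with 0 UMIs in WT and 4 in TSK.

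Ccl7 kept the company of Ccl2. Fibroblast-like cells had 439 CPM of Ccl7 in WT and 412 CPM in TSK (log2 ratio -0.09), and mural-like cells 161 and 301 (0.90). Resident macrophage-like cells had 395 and 603 CPM (0.61) and C1q macrophage-like cells 205 and 318 (0.63), whereas monocyte-like cells had only 38.9 and 55.9. These directions depended on the deepest cells: with at most 10000 UMIs per cell, Ccl7 was at -0.71 in C1q macrophage-like cells and 1.28 in fibroblast-like cells, and without cells carrying markers of another lineage the fibroblast ratio was 0.44. Both genes were found in the same cells: among fibroblast-like cells with Ccl2, 89.5% in WT and 86.6% in TSK also had Ccl7, against 38.0% and 41.7% of those without. When each cell was thinned to 500 UMIs, cells with both were 2.25 times (WT) and 1.71 times (TSK) as frequent as independent detection would give, and in C1q macrophage-like cells 2.40 and 3.22 times. Across the 18 combinations of 9 lineages and 2 libraries, Ccl7 was the gene with the profile most like Ccl2 among 14991 genes (Pearson r = 0.96 of log2(CPM + 10)), a description in which the points share libraries and depth.

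Within the fibroblasts, the 3 chemoattractants split by a marker of the adventitial, universal type. Cells without Clec3b and Pi16 (41 WT and 56 TSK) had Ccl2 at 1267 CPM in WT and 640 in TSK, a log2 ratio of -0.99. Their Ccl7 stood at 544 and 247 CPM (-1.14) and their Ccl8 at 911 and 247 CPM (-1.88), both past 2-fold lower in TSK. Cells with Clec3b or Pi16 (125 and 181) had instead Ccl2 at 414 CPM in WT and 570 in TSK (0.46), with Ccl7 at 419 and 452 and Ccl8 at 293 and 298. The WT values of the smaller group rested on few cells: 4 of its 41 cells held 76.2% of the Ccl2 UMIs, 68.1% of Ccl7 and 85.2% of Ccl8. Without the top cell of each library the ratios there were -1.12, -0.91 and -1.75. The share of its cells with each gene, at 500 UMIs per cell, was close in the libraries: 16.5% in WT and 15.5% in TSK for Ccl2, 12.8% and 10.2% for Ccl7, and 11.3% and 10.9% for Ccl8. It was also the shallower group in WT (median 7067 UMIs per cell, against 22304 in cells with Clec3b or Pi16).

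Ccl8 marked the resident macrophages. It stood at 4702 CPM in WT (2968 UMIs in 29 cells) and 5548 CPM in TSK (5712 UMIs in 102 cells), a log2 ratio of 0.24, and 1 WT cell held 738 of those UMIs. C1q macrophage-like cells followed with 866 and 1063 CPM (0.30), then fibroblast-like cells with 394 and 288 (-0.45), while monocyte-like cells had 28.7 and 27.2. The fibroblast ratio turned to 1.23 with at most 10000 UMIs per cell and to 0.33 without cells carrying markers of another lineage. At 500 UMIs per cell, Ccl8 would be seen in 67.8% of WT and 69.7% of TSK resident macrophage-like cells (89.7% and 87.3% unthinned). In T-like cells, which are not known to make it, the thinned shares were 0.453% and 0.958% (median 6805.5 and 2886 UMIs per cell, against 20922 and 9552.5 in the resident class). Resident macrophage-like cells were 3.70% of the WT library's UMIs and 2.25% of the TSK library's, yet held 48.0% and 65.6% of all Ccl8 UMIs. The class was 29 of 329 phagocytes in WT and 102 of 457 in TSK.

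Ccl12, a mouse chemoattractant without a human counterpart of the same name, was held mostly by macrophages. Resident macrophage-like cells had 366 CPM in WT and 284 in TSK (-0.37), C1q macrophage-like cells 183 and 306 (0.74, but -0.40 with at most 10000 UMIs per cell), and fibroblast-like cells 10.4 and 4.08. The genes with profiles most like it were Ms4a7 (r = 0.99) and C1qb (0.98), both macrophage genes. Both were also markers by which the phagocyte classes were assigned, so this likeness is partly built in. Among monocyte-like cells Ccl12 was at 16.4 and 44.7 CPM (1.45, past 2-fold), but 19 of the 28 TSK UMIs lay in 1 cell. C1q macrophage-like cells with low Arg1, the arginase gene of wound-type macrophages, carried more of the difference. In those cells Ccl12 was at 80.7 CPM in WT and 461 in TSK (log2 ratio 2.51), Ccl2 at 189 and 457 (1.27) and Ccl7 at 176 and 413 (1.23). A TSK cell held 100 of the 220 Ccl12 UMIs there, and without the top cell of each library the levels were 62.5 and 289 CPM for Ccl12 (2.21), 175 and 354 for Ccl2 (1.02) and 152 and 345 for Ccl7 (1.18). In the cells with high Arg1, Ccl12 was at 249 and 245 CPM (-0.02), Ccl2 at 295 and 351 (0.25) and Ccl7 at 223 and 280 (0.33).

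**Figure D2:**
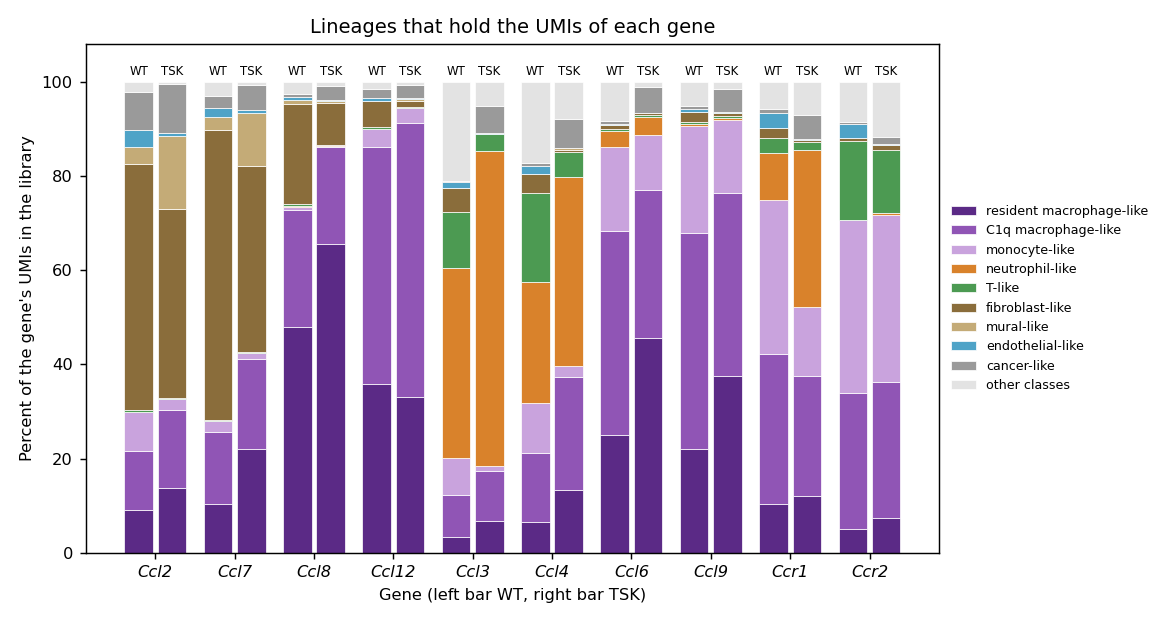
Percent of each gene's UMIs held by each lineage, with the WT library in the left bar and the TSK library in the right bar of each gene; the segments of a bar add to 100%. Fibroblast-like cells hold the largest share of Ccl2 and Ccl7, resident macrophage-like cells of Ccl8, neutrophil-like cells of Ccl3, and the 3 phagocyte classes hold 70.7% (WT) and 71.7% (TSK) of Ccr2.

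Ccl3 and Ccl4 were at their highest levels among the large classes in neutrophils. Ccl3 stood at 3574 CPM in the 40 WT neutrophil-like cells (404 UMIs) and 2303 CPM in the 205 TSK cells (1049 UMIs), a log2 ratio of -0.63 (-0.80 to -0.47). Ccl4 stood at 5865 CPM (663 UMIs) and 2516 CPM (1146 UMIs), a log2 ratio of -1.22. A WT cell with 159 Ccl4 UMIs weighed on this value, and without the top cell of each library the ratio was -0.96, no longer past 2-fold. The neutrophil markers summed to 32211 CPM in WT and 64998 in TSK, so ratios of this class compare cells with unlike marker levels. Of the 40 WT cells, 11 fell in an unnamed WT cluster, described with Ccl6 below. Without them the WT levels were 3826 CPM for Ccl3 and 6357 CPM for Ccl4. The share of the library's Ccl3 UMIs held by neutrophil-like cells was 40.4% in WT and 66.9% in TSK, beside 2.77% and 6.92% of the cells. Of Ccl4 they held less, 25.7% and 40.2%, against 31.9% and 39.6% in phagocytes and 18.8% and 5.27% in T-like cells. Thinned to 500 UMIs, 43.4% of WT and 38.6% of TSK neutrophil-like cells would show Ccl3, and cells with both genes were 1.69 and 1.70 times as frequent as independent detection would give. Outside the named classes, 1 WT basophil-like cell held 112 Ccl3 and 138 Ccl4 UMIs.

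In phagocytes the direction was the other one for macrophages. Ccl4 was higher in TSK in C1q macrophage-like cells (215 CPM in WT, 405 in TSK, log2 ratio 0.91) and in resident macrophage-like cells (265 and 371, 0.49), and lower in monocyte-like cells (188 and 101, -0.90). Ccl3 went the same way at lower counts, with 50.3 and 97.4 CPM in C1q macrophage-like, 52.3 and 104 in resident macrophage-like and 53.9 and 27.2 in monocyte-like cells (0.95, 0.99 and -0.99). None of these 6 ratios passed 2-fold, and Ccl3 turned to -0.05 in C1q macrophage-like cells with at most 10000 UMIs per cell and to 1.47 in monocyte-like cells with lineages from clusters. T-like cells with Cd8a or Cd8b1 had Ccl4 at 180 CPM in WT and 214 in TSK, and the other T-like cells 62.4 and 52.6. Over all T-like cells the ratio was 0.16, and -0.49 without cells carrying markers of another lineage. Fibroblast-like cells showed Ccl3 at 14.9 and 0.371 CPM and Ccl4 at 31.6 and 4.83, where 39 of 50 and 84 of 106 WT UMIs were those of 1 cell each.

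Ccl6 and Ccl9 belonged to phagocytes of every class. Ccl6 stood at 1399 CPM in WT and 2530 in TSK in resident macrophage-like cells (log2 ratio 0.85), 862 and 1061 in C1q macrophage-like cells (0.30) and 432 and 1064 in monocyte-like cells (1.30). Ccl9 stood at 735 and 989 CPM in the resident class (0.43), 547 and 623 in the C1q class (0.19) and 328 and 669 in monocyte-like cells (1.03). The pair was higher in TSK in each of the 3 classes as a whole, past 2-fold in the monocyte-like class. Within the C1q class this held in cells with high Arg1 (0.36 for Ccl6 and 0.24 for Ccl9) and was reversed in those with low Arg1. There Ccl6 was at 636 CPM in WT and 474 in TSK (-0.42, -0.66 to -0.19). Ccl9 was at 418 and 314 CPM in these cells (-0.41, -0.71 to -0.12). Their profiles across lineages were close (r = 0.93), and in C1q macrophage-like cells both were found together 1.77 times (WT) and 1.78 times (TSK) as often as independent detection would give.

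The higher Ccl6 and Ccl9 of monocyte-like cells in TSK lay in cells that clustered with macrophages. Monocyte-like cells that fell in the monocyte cluster (79 WT and 31 TSK) had Ccl6 at 459 CPM in WT and 430 in TSK, and Ccl9 at 323 and 292. Monocyte-like cells that fell in the C1q macrophage clusters (79 and 84) had Ccl6 at 371 and 1276 CPM and Ccl9 at 325 and 801. With lineages taken from clusters the log2 ratios turned to -0.15 and -0.19.

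In neutrophil-like cells Ccl6 was at 1062 CPM in WT (120 UMIs) and 483 in TSK (220 UMIs), a log2 ratio of -1.14. Of the WT UMIs, 74 came from 11 cells of an unnamed cluster of 45 WT cells with a median of 685 UMIs, led by Retnla, Retnlg, Ccl6 and Cd24a. Without them the WT level was 441 CPM and the ratio 0.13, so the lower Ccl6 of TSK neutrophils rested on those cells. That cluster had Ccl6 at 8206 CPM (270 UMIs) and the eosinophil genes Prg2 and Ccr3 at 669 and 334 CPM, and had no counterpart in the TSK library.

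**Figure D3:**
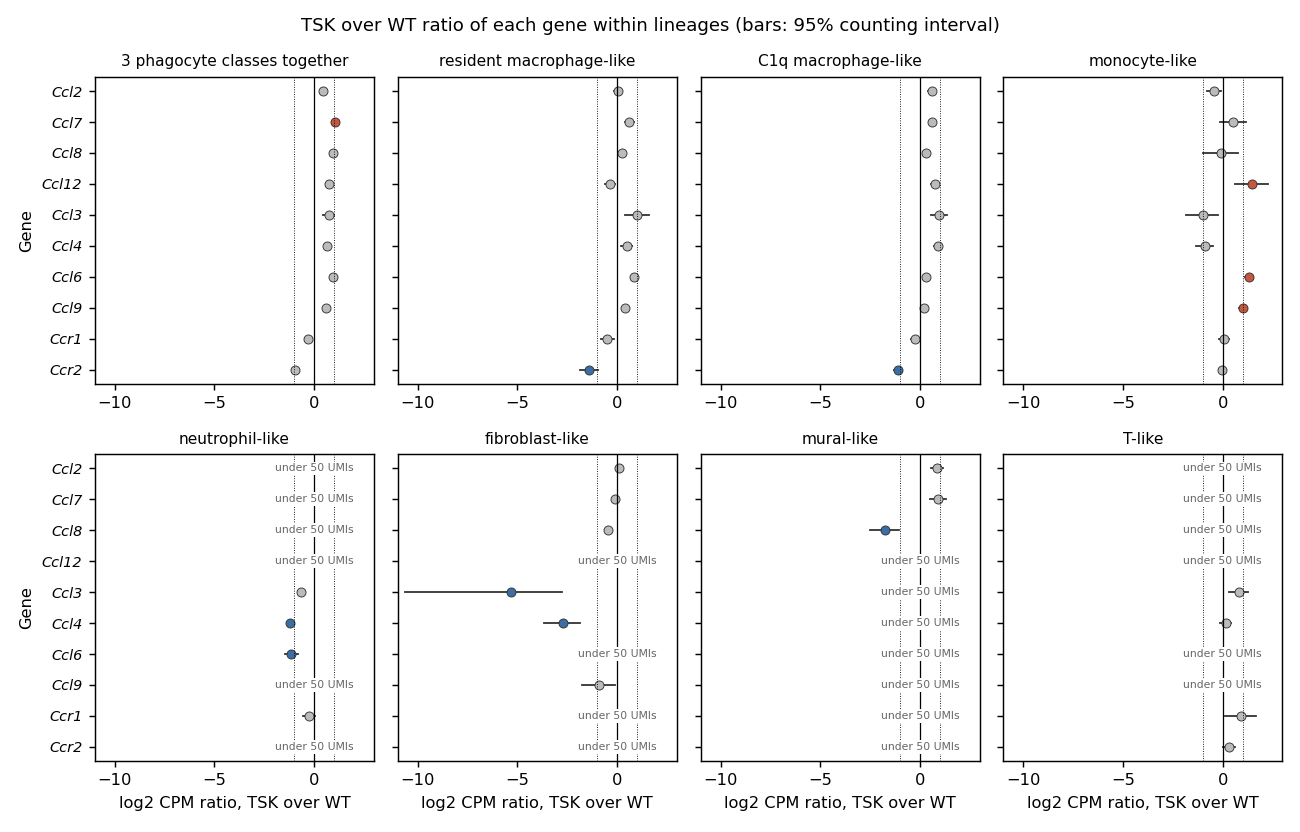
Log2 ratio of TSK over WT CPM for each gene (rows) in 8 groups of cells (panels); points are ratios, bars are 95% counting intervals, dotted lines mark 2-fold, and red or blue points are past 2-fold, higher or lower in TSK. All 8 ligands sit to the right of 0 in phagocytes together and both receptors to the left, with Ccr2 at -0.01 in monocyte-like cells and at -1.10 and -1.38 in the macrophage-like classes.

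Ccr2 had the largest ratio of the 10 genes in both macrophage classes. In monocyte-like cells it was even, at 521 CPM in WT (763 UMIs) and 518 CPM in TSK (324 UMIs), with a log2 ratio of -0.01 (-0.20 to 0.18), and of 0.15 without cells carrying markers of another lineage. In C1q macrophage-like cells it was at 339 CPM in WT (600 UMIs) and 158 CPM in TSK (266 UMIs), a log2 ratio of -1.10 (-1.32 to -0.89). In resident macrophage-like cells it was at 170 CPM (107 UMIs) and 65.1 CPM (67 UMIs), a log2 ratio of -1.38 (-1.84 to -0.93). The summed resident markers of that class were weaker in WT (417 CPM) than in TSK (1223 CPM), and the part of this in the ratio was not tested. Cells with Ccr2 were 93 of 140 WT and 67 of 239 TSK C1q macrophage-like cells, and at 500 UMIs per cell 15.6% and 6.83%, beside 19.7% and 21.8% in monocyte-like cells. In cancer-like cells, which should lack the gene, the thinned shares were 0.0945% and 0.0479% (median 32346 and 27317 UMIs per cell, against 11517 and 6377 in the C1q class). The ratio in C1q macrophage-like cells lay between -1.25 and -0.81 under all the alternatives, the least with lineages from clusters.

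The monocyte-like and C1q macrophage-like classes, without the resident class, were also divided by C1q on both sides of the limit of 10 that separates them. Below 1 C1q UMI per 10000 the cells had Ccr2 at 546 CPM in WT (129 cells) and 551 in TSK (81 cells), and from 1 to 10 at 415 (31 cells) and 443 (35 cells), with log2 ratios of 0.01 and 0.09. From 10 to 50 the levels were 370 (71 cells) and 195 CPM (109 cells), a ratio of -0.93. At 50 or more they were 302 (69 cells) and 131 CPM (130 cells), a ratio of -1.21. The 2 groups below 10 are the monocyte-like class and those above it the C1q macrophage-like class, so the parting of the libraries at 10 is the same difference as between the classes. Within the C1q macrophage-like class, Ccr2 was lower in TSK in both groups. In C1q macrophage-like cells with low Arg1, Ccr2 was at 490 and 155 CPM (-1.66, -2.04 to -1.29). In those with high Arg1 it was at 242 and 159 CPM (-0.60, -0.88 to -0.33). These intervals leave out the clumping of UMIs in single cells and differences between mice or pools. The difference between the Arg1 groups was not tested.

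**Figure D4:**
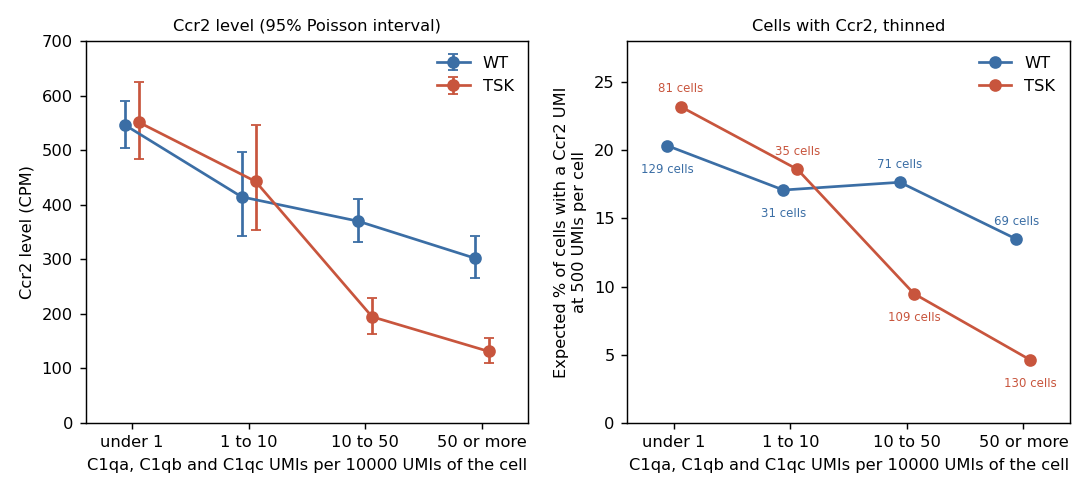
Ccr2 in monocyte-like and C1q macrophage-like cells, without the resident class, grouped by their C1qa, C1qb and C1qc UMIs per 10000 (horizontal axis), as CPM with 95% Poisson intervals (left) and as the expected percent of cells with a Ccr2 UMI after thinning to 500 UMIs (right), with cell numbers. WT and TSK meet in the lower C1q groups (546 and 551 CPM below 1) and part in the highest (302 and 131 CPM).

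Other cells with Ccr2 were T-like cells (105 CPM in WT, 133 in TSK, log2 ratio 0.34), NK-like cells (150 and 237, 23 and 20 cells) and dendritic-like cells (190 and 72.7, 23 and 15 cells). T-like cells held 16.7% and 13.3% of the library's Ccr2 UMIs and phagocytes 70.7% and 71.7%. Fibroblast-like cells, the main source of Ccl2 and Ccl7, had Ccr2 at only 3.28 and 3.71 CPM, and mural-like cells had 0 UMIs in both libraries. Neutrophil-like cells had 0 and 4 Ccr2 UMIs. In endothelial-like cells 63 WT UMIs stood against 1 in TSK, in a class in which many cells carried markers of another lineage and Arg1 was at 268 CPM; the part of such cells in that difference was not tested.

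Ccr1 was shared by neutrophils and phagocytes, and none of its ratios there passed 2-fold. Neutrophil-like cells had 1177 CPM in WT and 983 in TSK (log2 ratio -0.26), monocyte-like cells 296 and 310 (0.07), C1q macrophage-like cells 238 and 203 (-0.23) and resident macrophage-like cells 220 and 158 (-0.48, but 1.21 with lineages from clusters). Without cells carrying markers of another lineage the resident and C1q ratios were 0.59 and 0.15. Without the 11 WT neutrophil-like cells of the unnamed cluster, the WT neutrophil level was 1246 CPM. Phagocytes held 74.8% of the Ccr1 UMIs in WT and 52.1% in TSK, and neutrophil-like cells 10.0% and 33.4%, along with their larger number in the TSK library. Ccr1 and Ccr2 were not found together more often than independent detection would give in WT C1q macrophage-like cells (0.86 times), and 1.29 times as often in TSK.

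Over the 3 phagocyte classes together, all 8 ligands were higher in TSK and both receptors lower. Ccl7 was at 173 CPM in WT and 357 in TSK, a log2 ratio of 1.05 (0.91 to 1.18), the 1 member past 2-fold of 10, where 5.90% of 8407 genes passed as higher and 2.01% as lower. The other ligand ratios were 0.94 for Ccl8 and Ccl6, 0.74 for Ccl12, 0.73 for Ccl3, 0.66 for Ccl4, 0.59 for Ccl9 and 0.47 for Ccl2. Ccr1 was at -0.30 and Ccr2 at -0.95. The median of the members was 0.70 and that of all genes 0.21. Scaled by that median, the ligands stayed above 0, from 0.26 for Ccl2 to 0.83 for Ccl7, and Ccr2 passed 2-fold at -1.16, while with at most 10000 UMIs per cell Ccl3 was at -0.01 and Ccl8 at 2.32. Without cells carrying markers of another lineage Ccl8 was at 1.74, Ccl6 at 1.42 and Ccl12 at 1.37. The mix of phagocytes differed between libraries: resident, C1q and monocyte-like cells gave 16.3%, 45.8% and 37.9% of the phagocyte UMIs in WT and 30.8%, 50.4% and 18.7% in TSK. WT levels at the TSK mix would give Ccl8 at 1892 CPM, between the WT value of 1175 and the TSK value of 2252. For Ccl7 they would give 232 CPM and for Ccr2 321 CPM, against 380 in WT and 197 in TSK.

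Counted by class, 15 of 59 ratios of a member in a lineage, each on at least 50 UMIs, were past 2-fold, 3 higher and 12 lower in TSK. In resident macrophage-like cells the count was 0 higher and 1 lower of 10 (all genes 5.09% and 1.48%), in C1q macrophage-like cells 0 and 1 of 10 (4.30% and 2.02%), and in monocyte-like cells 3 and 0 of 10 (6.10% and 3.24%). In neutrophil-like cells it was 0 and 2 of 4 (15.6% and 11.9%), in fibroblast-like cells 0 and 2 of 6 (6.48% and 3.42%) and in mural-like cells 0 and 1 of 3 (11.5% and 4.93%). T-like cells had 0 and 0 of 4 (3.05% and 1.68%). Endothelial-like cells had 0 and 3 of 4 (14.1% and 7.10%) and cancer-like cells 0 and 2 of 8 (7.48% and 8.22%). In cancer-like cells Ccl2 was at 80.8 CPM in WT and 11.4 in TSK, with 175 of the 284 WT UMIs in 1 cell.

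Over whole libraries the picture was turned around. All 10 genes were lower in TSK, from -0.73 for Ccl6 (207 and 125 CPM) to -2.60 for Ccr2 (122 and 20.1 CPM), and 6 were past 2-fold lower, where 17.1% of all genes were lower and 19.6% higher past 2-fold. Cancer-like cells made up 7.56% of the cells and 20.6% of the UMIs in WT, and 40.6% and 77.8% in TSK. When they were left out, an alternative added after seeing the data, 9 of the 10 genes were higher in TSK: Ccl6 at 1.04, Ccl3 at 0.99, Ccl8 at 0.87, Ccl12 at 0.86, Ccl9 at 0.71, Ccl7 at 0.61, Ccl2 at 0.52, Ccl4 at 0.48 and Ccr1 at 0.37. Ccr2 alone remained lower, at -0.78. Without cells carrying markers of another lineage, 7 of the 10 genes were higher in TSK over all cells, among them Ccl8 at 1.15, Ccl12 at 0.89, Ccl6 at 0.78 and Ccl3 at 0.35, and with at most 10000 UMIs per cell Ccl8 was at 2.71. The share of all genes that were higher was not computed under these alternatives, so the counts of 9 and 7 have no background. Fewer cells of a type and less RNA per cell cannot be told apart in such sums, nor in a mix of UMIs, which holds both. WT levels of each class at the TSK mix would give ratios of -0.68 for Ccl2 (found: -1.28), -1.17 for Ccl7 (-1.19) and -1.03 for Ccl8 (-0.93). They would give -0.99 for Ccl12 (-0.96), -0.33 for Ccl3 (-0.77), -0.68 for Ccl4 (-1.28) and -1.16 for Ccl6 (-0.73). For Ccl9 the value would be -1.35 (-1.06), for Ccr1 -1.13 (-1.41) and for Ccr2 -1.95 (-2.60). What moved the mix was not tested.

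**Figure D5:**
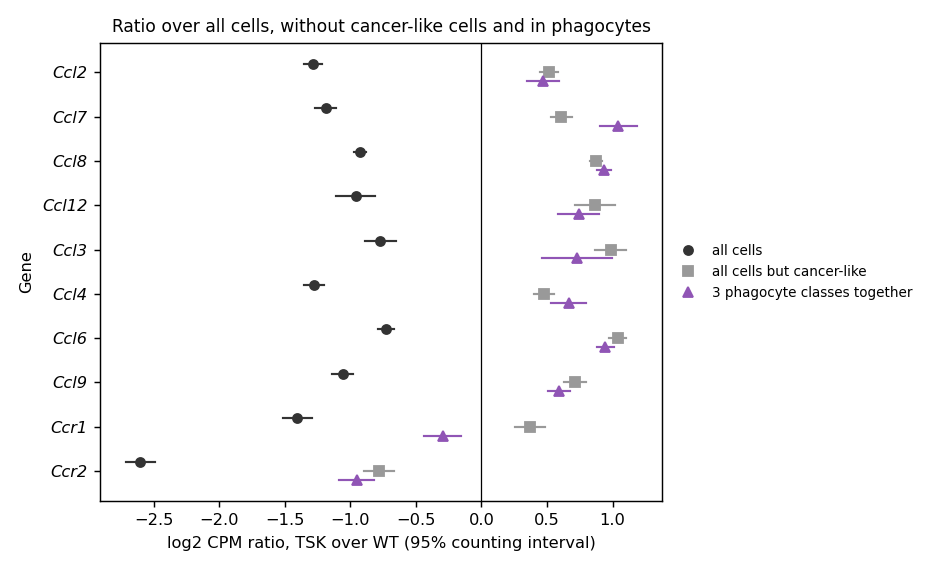
Log2 ratio of TSK over WT CPM of each gene over all cells (circles), over all cells but cancer-like ones (squares) and in the 3 phagocyte classes together (triangles), with 95% counting intervals. The circles all lie left of 0, down to -2.60 for Ccr2, and 9 of the 10 squares lie right of it. The share of all genes to the right of 0 was not computed for the squares.

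Of the other CC chemokine genes, a list of 13 further ligands had 4 with enough UMIs in phagocytes, of which 2 were lower in TSK past 2-fold and none higher. Ccl24, an eosinophil attractant of alternatively activated macrophages, was at 773 CPM in WT and 209 in TSK, and Ccl17, which attracts T cells, at 96.0 and 10.8. Ccl5, a ligand made by T cells, was at 2431 and 2753 CPM in T-like cells, and Ccl11 at 516 and 324 CPM in fibroblast-like cells (-0.67). Cx3cr1, the fractalkine receptor of patrolling monocytes, was at 63.9 CPM in WT and 84.8 in TSK in phagocytes (0.41), short of 2-fold. Ccrl2, an atypical receptor that binds chemerin, was higher in TSK past 2-fold in phagocytes together (74.5 and 176 CPM, 1.24), in each of their 3 classes (1.66, 1.39 and 1.05) and in T-like cells (2.31). It was lower in TSK in neutrophil-like cells (1752 and 1113 CPM, -0.65), where its level was highest, and past 2-fold lower in cancer-like cells (-1.04). Of 15 regulators of chemokine genes or of receptor signalling, none passed in phagocytes together, with a median log2 ratio of 0.06. Within C1q macrophage-like cells Rgs1, which damps G protein signals, was past 2-fold higher and Irf1 lower, and within resident macrophage-like cells Tnfaip3, an inhibitor of NF-kB, was higher.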

How the data were processed

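The authors deposited raw UMI counts per gene and barcode for each library, made with Cell Ranger (7.1.1 in the submitters' processing notes, 7.1.0 in the matrix headers) on mm10, without normalization. They hold barcodes called as cells, none under 500 UMIs, and the study's later cell filter had not been applied. Barcodes found in both libraries (263) were removed, since a barcode cannot be traced to 1 library. Cells were kept at 200 or more genes, 500 or more UMIs and at most 10% mitochondrial UMIs. The study's upper limits of 10000 UMIs and 10000 genes were an alternative, as they remove most cancer-like and many macrophage-like cells.

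The members, marker lists and pathway lists were chosen with earlier results of these data known. The genes named are the 10 members, listed CC pathway genes and those most like each member; 1 listed receptor is not reported here. UMIs were summed per lineage and library. Ratios carry exact conditional intervals, levels exact Poisson intervals (95%). Past 2-fold means a ratio of at least 2 either way with an interval excluding 1, on at least 50 UMIs. Thinning to 500 UMIs is the exact expectation and left out no cell. Intervals were run on simulated sums drawn from a Poisson distribution, the model they assume. There they covered the true ratio for 95.5% of 8407 genes in phagocytes and 96.0% of 8638 in fibroblast-like cells. That check of the arithmetic held no clumping of UMIs in single cells and no differences between mice or pools, so it cannot show coverage for these data. Sums and intervals were made in Python 3.11.15 (scipy 1.17.1, with numpy 2.4.6 and pandas 2.3.3) and plots with matplotlib 3.10.9. Clusters for the alternative came from 2000 variable genes, 30 components and 20 neighbours (leidenalg 0.10.2, igraph 0.11.9). Of the 32285 gene identifiers, 32235 were in GENCODE M21.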

Additional observations from a re-analysis of the deposited data

Results flagged for a closer look

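Ccl6 stood out because its difference between libraries ran in opposite directions in lineages of the same tumors. It was higher in TSK monocyte-like cells (log2 ratio 1.30) and lower in TSK neutrophil-like cells (-1.14), and the difference between these ratios was not tested. In neutrophil-like cells 74 of the 120 WT UMIs came from 11 cells of an unnamed WT cluster, and without them the ratio was 0.13. In monocyte-like cells the higher level lay in those that clustered with C1q macrophages (371 and 1276 CPM).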

How the results depend on the processing

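No paired analysis was possible because each genotype had 1 library. With the upper limits of 10000 UMIs and genes per cell, the ratios over all cells turned to 0.79 for Ccl2, 1.15 for Ccl7, 1.07 for Ccl9 and 0.54 for Ccr1, the members past 2-fold in phagocytes numbered 2 against 1, and the phagocyte share (WT and TSK) was 38.4% and 70.2% for the 8 ligands, 52.1% and 44.1% for Ccr1 and 48.3% and 63.0% for Ccr2, against 58.3% and 67.9%, 74.8% and 52.1%, and 70.7% and 71.7%. Lineages from clusters gave -0.15 for Ccl6 and -0.19 for Ccl9 in monocyte-like cells, 0.69 for Ccl2 in endothelial-like cells, 4 members past 2-fold in phagocytes and shares of 60.8% for the ligands in WT, 84.4% and 57.1% for Ccr1 and 79.1% and 79.9% for Ccr2. Leaving out cells with markers of another lineage gave ratios over all cells of 0.10 for Ccl2, 0.29 for Ccl7 and 0.37 for Ccl9, 4 members past 2-fold in phagocytes and shares of 57.3% and 73.5% (ligands), 67.8% and 49.3% (Ccr1) and 68.0% (Ccr2, WT). Weighting each cell equally turned Ccr1 over all cells to 0.22. Keeping the shared barcodes gave a WT ligand share of 57.7%. At 1.5-fold, 8 members passed in phagocytes and 32 ratios over lineages, and with at least 20 UMIs per gene 23 ratios, against 15. The next alternatives were added after seeing the data. Without the top cell of each library, 3 members passed in phagocytes. Without the unnamed WT cluster, Ccl6 in neutrophil-like cells was 0.13 and the WT ligand share 59.0%. Without cancer-like cells, the ratios over all cells were 0.52 for Ccl2, 0.61 for Ccl7, 0.48 for Ccl4, 0.71 for Ccl9 and 0.37 for Ccr1. The share of all genes past the fold was not computed under any of these alternatives, so their counts of members and ratios have no background to be set against. The causes of these shifts were not tested.

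Ratios kept their sign in 38 of 58 with the upper limits, 45 of 58 without cells of mixed markers, 60 of 71 with lineages from clusters, 68 of 79 with cells weighted equally, 76 of 79 when scaled to a median ratio of 1, 72 of 74 with at most 5% mitochondrial UMIs, 77 of 79 with shared barcodes kept and 77 of 78 with at least 6 marker UMIs. Ccr2 in C1q macrophage-like cells kept its sign throughout. Members with few UMIs, and classes with few cells such as the 19 WT mural-like cells, limit precision, and the intervals leave out differences between mice and pools.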
